A study of Mus musculus with 2 samples.

Results

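The cells described here are the 200 cells of Apc mutant mouse intestinal organoids with the highest sum of table values of Nts, Aldh1a2 and Ly6d. They were chosen by those measured values from 2209 cells of a DBZ library and a DMSO library together, and they made up 9.05% of all cells (exact Clopper-Pearson 95% interval 7.89 to 10.3%). Because these 3 genes picked the cells, and because every other gene was read in the same cells, all differences between chosen and other cells are descriptions without a test. The chosen cells are called members below.

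Neurotensin, the product of Nts, is a small peptide known in the gut from the hormone-secreting N cells of the epithelium and from enteric neurons. Aldh1a2 encodes a retinaldehyde dehydrogenase, which makes retinoic acid, the vitamin A derivative that binds the nuclear receptors RAR and RXR. Ly6d belongs to the Ly6 family, small proteins that hang on the cell surface by a lipid anchor, and is best known as a marker of early B cell progenitors and of stratified epithelia. Clu, which encodes the secreted chaperone clusterin, marks the revival stem cells that appear in mouse intestine after injury.

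Both libraries came from intestinal organoids, small cultures grown from gut epithelium, of the strain C57Bl at an age of 3 to 4 months, and both were Apc mutant. Apc is a tumour suppressor that keeps beta-catenin, the effector of Wnt signalling, low. DBZ blocks gamma-secretase, a protease that Notch receptors need to signal. The DMSO library received the solvent. The protocol text of both samples lists 300 nM 4-hydroxytamoxifen and 10 uM DBZ, so the treatment was taken from the titles. The sources used here do not name the Apc allele, the driver of recombination or the number of mice. The DBZ library held 1241 cells and the DMSO library 968, with medians of 10901 and 11183 UMIs per cell (unique molecular identifiers, which count captured transcripts). With 1 library per group there is no replicate check, the libraries are compared and not the treatments, and every interval covers counting error only. The libraries shared 3 cell barcodes, and no member carried one of them.

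Members came mostly from the DBZ library. There were 178 members among DBZ cells, 14.3% of that library (12.4 to 16.4%), and 22 among DMSO cells, 2.27% (1.43 to 3.42%). The sum of natural log values ran from 1.56 to 8.46 in DBZ members, with a median of 2.85, and from 1.68 to 7.36 in DMSO members, with a median of 2.36. The sum was 0 in 70.3% of the other DBZ cells and in 94.9% of the other DMSO cells. At the boundary the values were continuous: the lowest member, a DBZ cell, had 1.556 from 4 Nts UMIs, and the highest cell outside had 1.551 from 2 Nts UMIs in a shallower cell. The set is therefore the upper end of a range and has no gap below it.

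**Figure D1:**
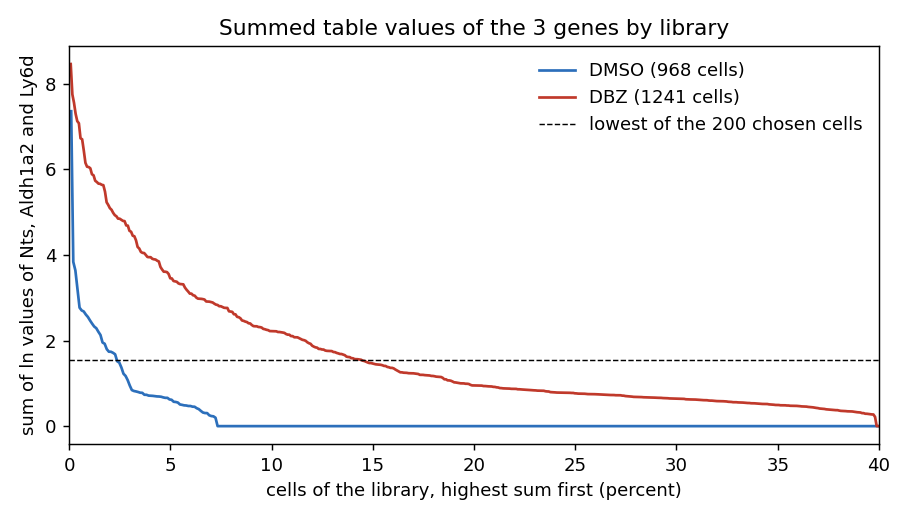
Sum of the natural log values of Nts, Aldh1a2 and Ly6d (vertical axis) against the cells of each library ranked from the highest sum, as a percent of the library (horizontal axis, up to 40%). The DBZ line crosses the dashed boundary of the 200 chosen cells at 14.3% of cells and the DMSO line at 2.27%, and neither line has a step there.

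The 3 genes were found together in some members and alone in others. Of the 200 members, 41 held UMIs of all 3 genes, 20 of Nts and Aldh1a2, 38 of Nts and Ly6d, and 40 of Aldh1a2 and Ly6d. A single gene was seen in 23 members for Nts, 31 for Ly6d and 7 for Aldh1a2. All but 1 of the members with all 3 genes were DBZ cells. Among the DMSO members, 11 of 22 held Ly6d alone and 5 held Nts alone.

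Nts averaged 11.2 per 10000 UMIs in DBZ members, with a median of 1.24 and a highest cell of 272, against 0.104 in the other DBZ cells. The 5 highest cells gave 42.5% of that mean, so Nts was concentrated in few members. Ly6d averaged 9.07 with a median of 1.44 and a highest cell of 129, against 0.125 in other cells. Aldh1a2 was more even, with a mean of 1.60, a median of 0.879 and a highest cell of 9.01, against 0.120. UMIs of Nts, Aldh1a2 and Ly6d were seen in 62.9%, 59.6% and 74.7% of DBZ members. In the 22 DMSO members Nts averaged 8.05, from 10 cells, and Ly6d 6.11, from 17 cells. Aldh1a2 averaged 0.114 there, from 3 UMIs in 2 cells, so the DMSO members were chosen in practice on Nts and Ly6d.

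On the mm10 build, Nts lies on chromosome 10 (102481756 to 102490486, minus strand), Aldh1a2 on chromosome 9 (71215789 to 71296243, plus strand) and Ly6d on chromosome 15 (74762056 to 74763620, minus strand). Ly6g6c lies on chromosome 17 (35065388 to 35070050, plus strand), Clu on chromosome 14 (65968483 to 65981547, plus strand) and Npy on chromosome 6 (49822710 to 49829507, plus strand). All are annotated as protein coding. Of these 6 markers, 4 had a promoter entry in RefSeq on the build GRCm38, the assembly that mm10 names. The windows are the 250 bases before the start that RefSeq gives each gene, shown because these genes were high together in the members. They read 5′ to 3′ on the strand of the gene. The RefSeq starts of Ly6g6c and Nts lie inside the gene spans above, so the Ly6g6c window lies wholly inside its span and the Nts window partly:
Nts, chr10:102490419-102490668, minus strand: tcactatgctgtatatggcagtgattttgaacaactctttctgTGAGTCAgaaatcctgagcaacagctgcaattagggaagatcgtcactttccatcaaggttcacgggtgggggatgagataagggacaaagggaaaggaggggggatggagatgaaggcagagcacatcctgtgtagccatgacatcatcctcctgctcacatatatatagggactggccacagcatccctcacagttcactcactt
Aldh1a2, chr9:71215539-71215788, plus strand: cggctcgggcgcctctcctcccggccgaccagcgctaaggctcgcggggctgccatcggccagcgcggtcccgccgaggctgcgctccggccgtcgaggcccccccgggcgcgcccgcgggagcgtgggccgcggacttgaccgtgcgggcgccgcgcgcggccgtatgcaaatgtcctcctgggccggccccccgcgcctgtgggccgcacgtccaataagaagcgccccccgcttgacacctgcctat
Ly6g6c, chr17:35067075-35067324, plus strand: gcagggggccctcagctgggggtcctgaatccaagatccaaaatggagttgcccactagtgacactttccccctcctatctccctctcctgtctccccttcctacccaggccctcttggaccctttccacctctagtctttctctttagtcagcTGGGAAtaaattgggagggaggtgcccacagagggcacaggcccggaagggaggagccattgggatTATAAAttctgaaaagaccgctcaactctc
Npy, chr6:49822460-49822709, plus strand: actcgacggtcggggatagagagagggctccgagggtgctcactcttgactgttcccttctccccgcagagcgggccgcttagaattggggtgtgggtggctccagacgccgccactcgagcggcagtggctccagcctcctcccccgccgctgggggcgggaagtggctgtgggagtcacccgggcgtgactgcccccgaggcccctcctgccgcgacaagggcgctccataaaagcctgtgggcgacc
Capitals mark matches to 6 motifs searched on both strands. These were the TATA box (TATAAA), AP-1 (TGANTCA), the cyclic AMP element (TGACGTCA), TCF and LEF (CTTTGAT), RBPJ (TGGGAA) and SOX (ATTGTT). The Nts window held 1 match, to AP-1, a motif found in 6.75% of 32851 promoter windows of the same length. The Ly6g6c window held a TATA box (12.4% of windows) and an RBPJ match (21.6% of windows). The Aldh1a2 and Npy windows held none of the 6 motifs. No 2 of the windows matched the same motif, and a match is a run of letters, not a shown binding site. G and C made up 77.6% of the Aldh1a2 window and 69.2% of the Npy window, against 48% for Nts and 55.2% for Ly6g6c.

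Each of the 3 genes was also higher in cells chosen without it. The 3 genes were put together with earlier results of these data known. Their joint occurrence is therefore described here and is no independent check of the set. When 200 cells were chosen by Aldh1a2 and Ly6d, the 177 DBZ cells among them had 6.30 Nts per 10000 against 0.931 in other DBZ cells, and 39.5% against 14.9% of the cells held an Nts UMI. Cells chosen by Nts and Ly6d had 0.967 Aldh1a2 against 0.230 (43.9% against 13.2% of cells). Cells chosen by Nts and Aldh1a2 had 4.15 Ly6d against 0.912 (48.9% against 16.6%). The log2 changes were 2.69, 1.86 and 2.12. Chosen cells were somewhat deeper, with medians of 12039.5 to 12920 UMIs against 10576 to 10712.5. With each cell thinned to 5000 UMIs, the shares remained apart at 27.7% against 8.46% for Nts, 25.4% against 7.49% for Aldh1a2 and 31.1% against 9.51% for Ly6d. In the DMSO library Nts had 3.20 against 0.115, from 4 of 23 chosen cells, and Ly6d 3.74 against 0.140, from 5 of 10 chosen cells. Aldh1a2 was seen in 1 of 27 chosen DMSO cells, too few to describe.

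A low share of cells outside the set also held UMIs of these genes. Nts was seen in 12.8% of the 172 DBZ cells highest in alpha-defensins that were not members (8.19 to 18.7%), cells that resemble Paneth cells and are not known to make neurotensin, and in 11.01% of all other DBZ cells. Their median depths were 11738.5 and 10646 UMIs. Aldh1a2 was seen in 6.98% and Ly6d in 11.05% of the defensin-high cells. In the 165 endocrine-high DBZ cells that were not members, the shares were 5.45% for Nts, 2.42% for Aldh1a2 and 10.9% for Ly6d. Their median depth was 8519 UMIs. Whether such UMIs are background or expression was not tested. All of these cells had to be low in the 3 genes to stay outside the set, so the higher shares in members follow from the choice.

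Members also resembled each other in the genes that did not choose them. In 30 principal components of the 2000 most variable genes, with Nts, Aldh1a2 and Ly6d left out, 53.1% of the 15 nearest cells of a DBZ member were members, while members made up 14.3% of the library. Around other DBZ cells the share was 7.04%. Members were the majority of the nearest cells for 108 of 178 DBZ members, and 8 members had no other member near them. The share was 42.5% around the 45 members with UMIs of 1 of the genes, 53.3% around the 93 with 2 and 64.3% around the 40 with all 3. In the DMSO library 10.3% of a member's nearest cells were members against 2.27% of the library, and 5 of 22 members had none.

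**Figure D2:**
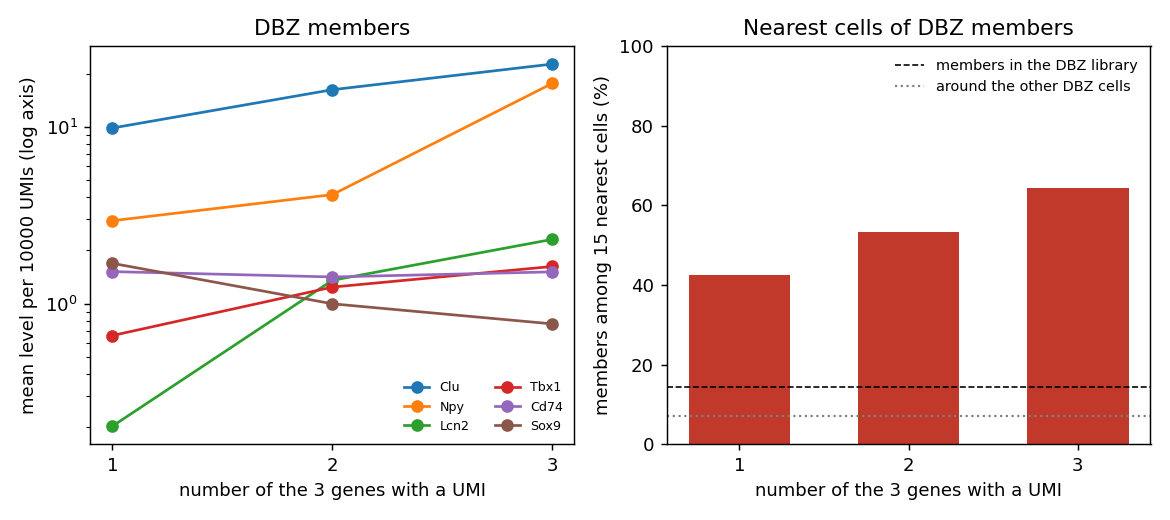
Left, mean level per 10000 UMIs (log axis) of 6 genes in DBZ members with UMIs of 1, 2 or all 3 of Nts, Aldh1a2 and Ly6d (45, 93 and 40 cells). Right, mean percent of members among the 15 nearest cells of the same groups, with the share of members in the DBZ library (dashed, 14.3%) and around other DBZ cells (dotted, 7.04%). Clu and Npy were highest in the cells with all 3 genes, and Cd74 lay between 1.42 and 1.52 in each group.

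Of 9238 genes with a UMI in at least 10% of DBZ members or of other DBZ cells, 299 (3.24%) were at least 2-fold higher in members and 142 (1.54%) at least 2-fold lower. Changes are given as log2 ratios of mean levels per 10000 UMIs after adding 0.05 to each mean, which understates them for low genes. The median over all 9238 genes was 0.14, so values near 0.14 are typical. DBZ members had more UMIs (median 12573 against 10646) and more genes (3743 against 3126) than other DBZ cells, while mitochondrial transcripts took nearly the same share (4.76% and 4.66%). Cells over 25000 UMIs, where 2 cells in 1 droplet are more likely, made up 5.62% of DBZ members and 6.02% of other DBZ cells.

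Transcripts of ribosomal proteins took a smaller share of members in both libraries. The share ran from 4.63 to 27.3% in DBZ members with a median of 13.9%, against 6.83 to 35.9% and a median of 19.9% in other DBZ cells. In the DMSO library the medians were 20.4% in members and 26.1% in other cells. The ranges overlapped widely. Of 81 ribosomal protein genes, 81 were lower in DBZ members, with a median log2 change of -0.45 and none past 2-fold, and 79 were lower in DMSO members, with a median of -0.21. Levels are shares of a cell's UMIs, so a lower ribosomal share goes with higher shares of the remaining genes.

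The remaining markers given for these cells were also high in DBZ members. Clu was seen in 94.9% of them, from 0 to 97.6 per 10000 with a median of 11.2 and a mean of 16.1. Other DBZ cells had a Clu median of 0.705 and a mean of 2.44, a log2 change of 2.70 (2.54 from pooled UMIs, 2.47 to 2.61). The lower quartile of members, 4.17, lay above the upper quartile of other cells, 1.82. Ly6g6c, another Ly6 family gene, averaged 1.24 against 0.145 (log2 change 2.73). It was seen in 31.5% of members and 6.11% of other cells, and its median was 0 in both. Npy, the gene of neuropeptide Y, a transmitter of neurons and a gut peptide, averaged 6.89 against 1.77 (1.93), with a median of 0.604 and a highest cell of 258. The 5 highest cells gave 47.3% of the Npy mean in members, so Npy was carried by few cells. Ly6g6c, Clu and Npy did not choose the cells and were all higher in DBZ members. They were given as markers of these cells, so their levels are no independent check of the set. In DMSO members Aldh1a2 and Npy were nearly missing, with 3 and 7 UMIs.

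**Figure D3:**
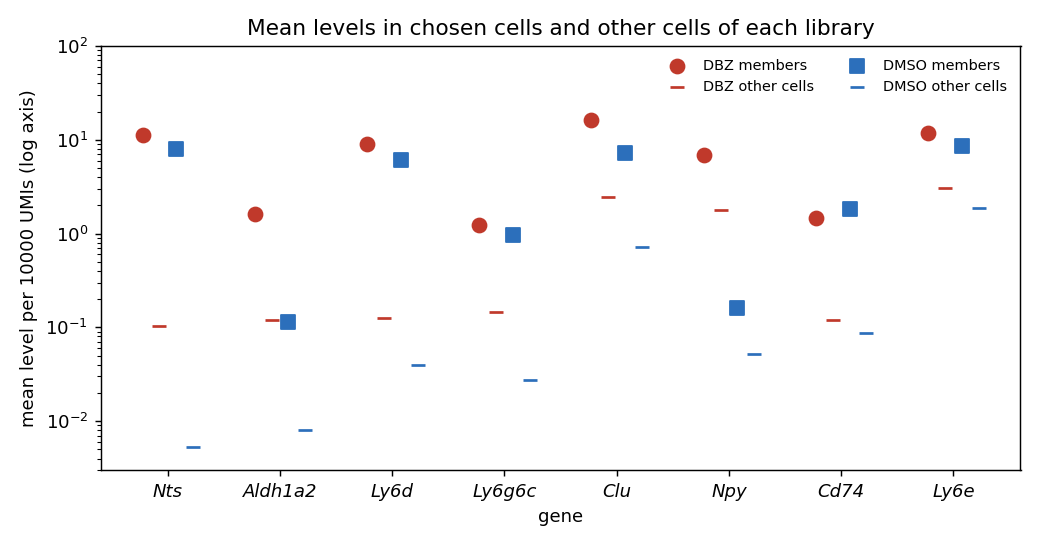
Mean level per 10000 UMIs (log axis) of the 6 marker genes, Cd74 and Ly6e in 178 DBZ members, 1063 other DBZ cells, 22 DMSO members and 946 other DMSO cells. Members lie above the other cells of their library for every gene shown, and DMSO members reach the level of DBZ members for Cd74 but not for Aldh1a2 and Npy.

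Besides Ly6g6c and Clu, the 15 highest changes among DBZ members included those of Cd74 (3.16), Lcn2 (3.00), Tmem255a (2.43), Plat (2.39), Ecscr (2.35), Tbx1 (2.34), Rgs5 (2.20), Sox2 (2.18), Lynx1 (2.12), Parm1 (2.09), Scara3 (2.09) and Alb (1.99). Cd74, the invariant chain of MHC class II, was seen in 57.3% of DBZ members and 7.71% of other DBZ cells, with means of 1.46 and 0.119. Tbx1, a T-box transcription factor of pharyngeal development, was seen in 60.1% and 12.6%, with means of 1.18 and 0.193. Parm1 had 3.03 against 0.671 and was seen in 77.0% and 25.3% of cells. Plat, the tissue plasminogen activator, had 1.27 against 0.203. The means of Lcn2, an iron-scavenging antibacterial protein, and of Rgs5 rested on few cells: the 5 highest members gave 69.4% and 64.4% of them.

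Over all 1241 DBZ cells, the genes whose natural log values followed the sum of the 3 genes most closely were Clu (Pearson r 0.56), Cd74 (0.52), Ly6e (0.46), Hacd2 (0.44) and S100a6 (0.43). These correlations describe cells of 1 library that also share differences in depth. S100a6, a calcium-binding protein, was found in every DBZ member, from 9.38 to 162 per 10000 with a median of 46.6, while other DBZ cells had a median of 9.47. Ly6e had a median of 9.27 in members and 1.55 in other cells. Hacd2, an enzyme of long fatty acid synthesis, had medians of 2.47 and 0.630. For all of these the ranges of members and other cells overlapped.

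The DMSO members, cells of another library, differed from the other DMSO cells in many of the same genes. In the DMSO library 537 of 8997 genes (5.97%) were at least 2-fold higher in the 22 members and 490 (5.45%) at least 2-fold lower. Of the 299 genes higher in DBZ members, 220 were also measured in the DMSO comparison, 205 of them (93.2%) were higher there, and 131 (59.5%) were past 2-fold. Over all 8474 genes measured in both, 49.9% were higher in DMSO members and 4.76% past 2-fold. Of 95 measured genes that were lower in DBZ members, 86 (90.5%) were lower in DMSO members and 54 (56.8%) past 2-fold, against 50.1% and 5.30% of all genes. Cd74 had a log2 change of 3.76 in DMSO members, Ly6g6c 3.70, Clu 3.25, Tbx1 2.72 and Ly6e 2.17.

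Single genes of the DMSO members rest on few cells. Cd74 was seen in 8 of 22, and 1 cell gave 44.2% of its mean of 1.82. Clu was seen in 15, with a median of 3.44 and a highest cell of 32.6, and Ly6e in all 22, from 0.914 to 30.5. S100a6 ran from 7.89 to 137 with a median of 56.1. Lcn2 had no UMI in the 350184 UMIs of these members, which allows a level of up to 0.0857 per 10000. Sox2, Alb and Gip were listed at 0 in every DMSO cell, so no fold is given. DMSO members were deeper than other DMSO cells (medians of 14299.5 and 11117.5 UMIs), and 4 of them (18.2%) had over 25000 UMIs against 6.98% of other cells.

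**Figure D4:**
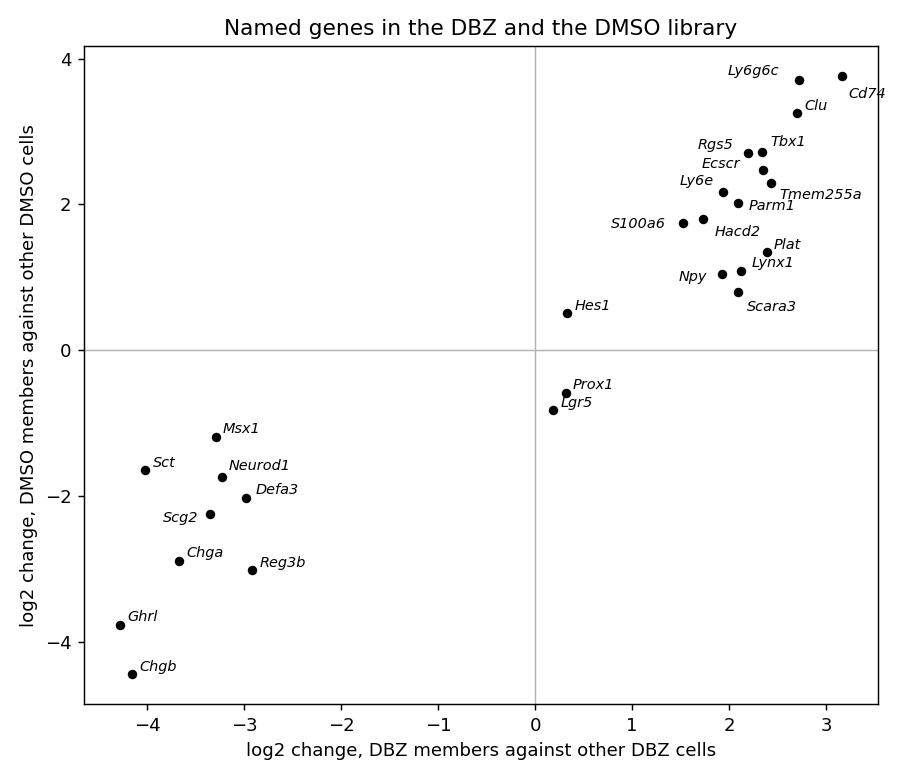
Log2 change of members against other cells in the DBZ library (horizontal axis) and in the DMSO library (vertical axis) for genes named in the text that were seen in the DMSO library, without Nts, Aldh1a2 and Ly6d, and without Lcn2, which had no UMI in DMSO members and little in other DMSO cells. Most genes have the same sign in both libraries, and Prox1 and Lgr5 lie above 0 with DBZ and below 0 with DMSO. Chga, Chgb, Neurod1, Scg2 and Defa3 had no UMI in DMSO members, so the size of their DMSO value depends on the added 0.05.

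Genes of the retinoic acid pathway were split in direction. Over all 12925 genes seen in at least 1% of either set of DBZ cells, the filter used for every list, 62.5% were higher in members, with a median of 0.10. In the DMSO library 46.6% of 12370 genes were higher. These shares are the background for the counts of higher and lower genes that follow. For counts past 2-fold, the share of all genes was taken only among genes in at least 10% of cells. It was 3.24% higher and 1.54% lower in DBZ members, and 5.97% and 5.45% in DMSO members. Besides Aldh1a2, 17 listed genes passed that filter. Of these, 10 were higher in members and 7 lower, near the share of all genes. The median was 0.18, and 3 were past 2-fold, all higher. Rdh10, which makes retinaldehyde, the substrate of Aldh1a2, had 5.55 against 2.20 per 10000 (log2 change 1.32) and was seen in 88.8% of members. Stra6, the retinol uptake receptor, had 0.115 against 0.0284 (1.07). Rarg, a retinoic acid receptor, had 0.299 against 0.145 (0.84). Dhrs3, which turns retinaldehyde back to retinol and is induced by retinoic acid in other cells, had 0.287 against 0.219 (0.33), and Rarb, a classical retinoic acid target, 0.0171 against 0.0228. In DMSO members, where Aldh1a2 was nearly missing, 9 of 17 were higher and 8 lower, with a median of 0.03, 3 past 2-fold higher and 2 past 2-fold lower. Stra6 had 1.82 there, Rdh10 1.09 and Rxrb, a retinoid X receptor, -1.18.

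The Ly6 family was higher with few exceptions. Of 13 genes measured besides Ly6d, 11 were higher in DBZ members and 2 lower, with a median of 0.75 and 5 past 2-fold. Ly6e, the gene of the family with the most UMIs, had 11.9 against 3.07 (log2 change 1.94) and was seen in 96.1% of members. Lynx1, known in mouse brain as a modulator of acetylcholine receptors, had 0.296 against 0.0297 (2.12). Ly6a, the surface protein Sca-1 and a marker of regenerating and fetal-like mouse intestine, had 0.481 against 0.130 (1.56) and was seen in 11.2% of members. Lypd8, made by differentiated gut epithelium, was lower (-0.70), as was Cd59b (-0.17). Ly6 genes are similar in sequence, so reads may have been split among them. Their medians were also positive in the DMSO library (0.89, 10 of 15 higher).

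Most genes of hormone-secreting cells were lower in members, and a few were higher. Hormones and granule proteins other than Nts had a median log2 change of -1.72 in DBZ members, with 18 of 24 lower and 6 higher, 13 past 2-fold lower and 3 past 2-fold higher. The 3 were Npy (1.93), Pam and Pcsk2. The endocrine transcription factors were lower in 15 of 15 (median -0.91). Gip (-4.64), Ghrl (-4.27), Chgb (-4.15), Sct (-4.02), Chga (-3.67), Scg2 (-3.35) and Neurod1 (-3.23) were 7 of the 10 lowest changes among genes in at least 10% of cells. These values depended on which other cells were compared. When the cells highest in defensins (Defa17, Defa22, Defa24 and Defa3) or in endocrine genes (Chga, Chgb, Neurod1 and Neurog3) were left out of members and other DBZ cells alike, 167 members and 776 other cells stayed. The list median was then -0.099, and Gip had -0.17, Ghrl -0.18, Chga -0.061 and Neurod1 -0.61. Sct had -2.07 and Scg2 -1.49. With the cells left out of the other DBZ cells only, the list median was -0.021. Only 1 DBZ member was among the 200 endocrine-high cells, 1 had a Neurog3 UMI and 12 had a Chga UMI.

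The cells highest in Nts were members with hardly any endocrine transcripts. The 10 DBZ cells with the most Nts had 51.0 to 272 per 10000, and 3 of them held any UMI of Chga, Chgb, Neurod1 or Neurog3, at most 1 UMI each. Conversely, Nts was seen in 10 of 166 endocrine-high DBZ cells and in 0 of 34 endocrine-high DMSO cells (exact upper bound 10.3%). Among genes of peptide processing, Pam, which amidates peptides, had 1.01 against 0.284 (log2 change 1.66; 57.9% of members), Pcsk2, a prohormone convertase, 0.144 against 0.0467 (1.01), and Pcsk1 0.907 against 0.662 (0.43). Cpe, which trims peptide ends, was seen in 63.5% of members and 36.2% of other cells, and its change was -0.32 against all other DBZ cells and 1.75 against those left without the defensin-high and endocrine-high ones. Of the neurotensin and neuropeptide Y receptors on the list, Sort1 (0.38) and Sorl1 (0.92) were the more abundant, and the signalling receptor Npy1r was seen in 2.81% of members.

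The values of Paneth cell products also depended on the defensin-high cells. Their median was -1.88 against all other DBZ cells (17 of 18 lower, 11 past 2-fold) and -0.014 with defensin-high and endocrine-high cells left out of members and other cells alike. Leaving them out of the other cells only gave 0.82, a sign that this one-sided filter sets, since 10 DBZ members were themselves among the defensin-high cells. Defa24 had 19.9 per 10000 in members against 79.2 in other cells, and its UMIs were in 100% of members and 99.9% of other cells, so its presence alone separates no cells. Defa3, one of the 10 lowest genes, had a log2 change of -2.98. It is one of the genes that define the defensin-high cells, so its values without them (0.30 with both sides filtered, 0.67 with one) are set in part by that filter. Defensin genes are near-identical copies. Goblet genes had a median of -0.10, with Tff3 at -2.26. Enterocyte genes were lower in 14 of 14 (median -0.95, or -0.70 with both sides filtered), led by Reg3b (-2.91) and Sis (-2.76). Reg3b, an antibacterial lectin, had -3.59 with both sides filtered.

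**Figure D5:**
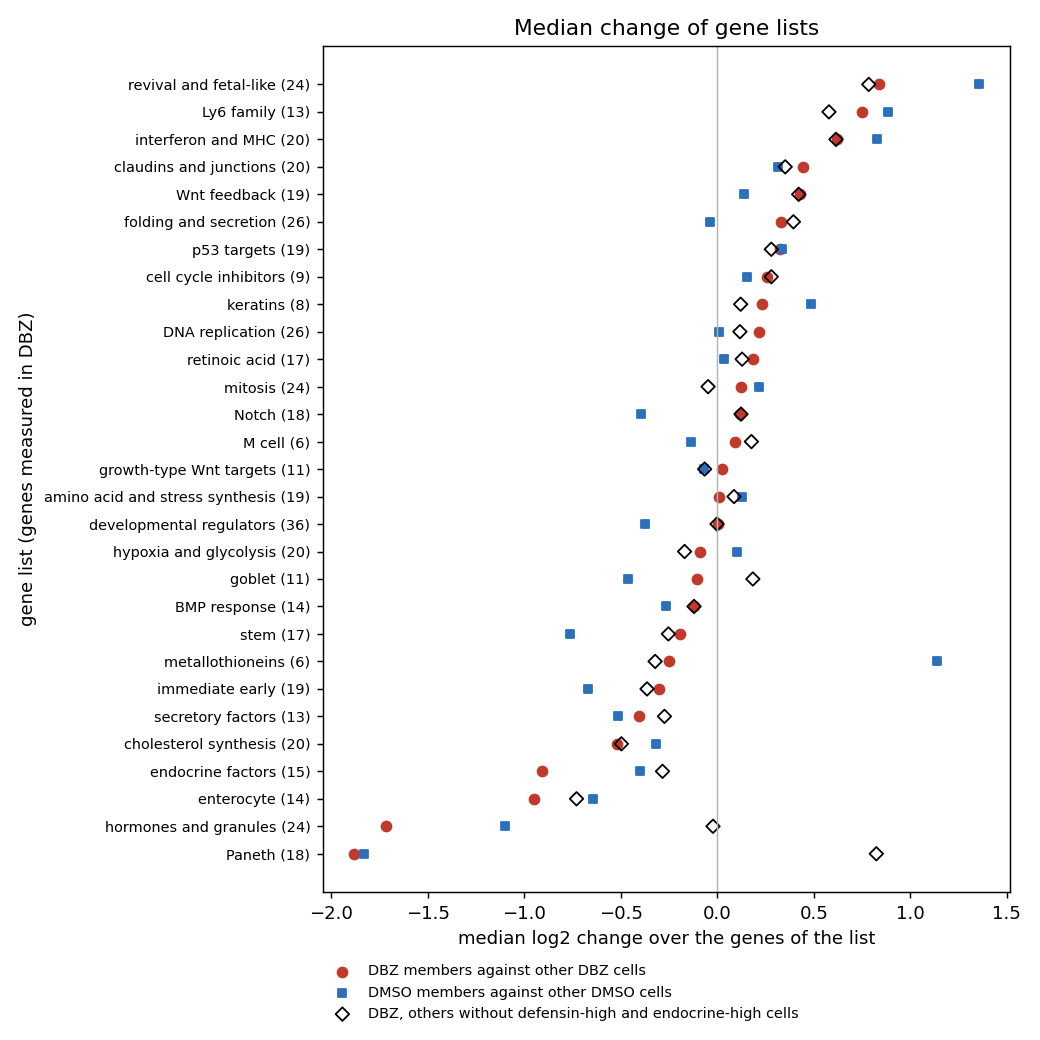
Median log2 change (horizontal axis) of each gene list with at least 5 measured genes, for DBZ members against other DBZ cells (circles), DMSO members against other DMSO cells (squares) and DBZ members against other DBZ cells with the defensin-high and endocrine-high cells left out of the other cells only (diamonds). Diamonds part from circles for the Paneth list (0.82 against -1.88) and the hormone list (-0.021 against -1.72), while the revival list is positive in all (0.84, 1.36 and 0.79).

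Genes of revival stem cells and fetal-like epithelium had positive medians in both libraries. Of 24 measured genes, 17 were higher in DBZ members and 7 lower, not far from the 62.5% of all genes that were higher. Their median was 0.84 against 0.10 for all genes, with 11 past 2-fold higher and 2 past 2-fold lower. Besides Clu and Ly6a, the annexin Anxa1 had 0.557 against 0.171 (log2 change 1.46) and Anxa2 6.02 against 2.61 (1.19). Tm4sf4 went the other way, with 0.612 against 3.67 (-2.49). The YAP target Cyr61 had 2.60 against 3.36 (-0.37). In DMSO members 21 of 23 were higher, with a median of 1.36. Anxa2 was found in all 22 of them, from 2.31 to 33.7 with a median of 7.49. The DMSO mean of Sprr1a, 7.02 against 0.411, came to 65.8% from 1 cell, and that of Ly6a, 3.93 against 0.322, came from 6 cells.

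Within the DBZ members, genes of this list differed in whether they were higher with or without Aldh1a2. Ly6a averaged 0.128 per 10000 in the 106 members with Aldh1a2 and 1.00 in the 72 without, and Sprr1a 0.185 and 2.03. Clu was the reverse, with 19.7 and 10.9, as were Npy with 10.3 and 1.94, Sox2 with 0.349 and 0.0665 and Tbx1 with 1.46 and 0.765. Ly6e followed Ly6d, with 13.9 in members with Ly6d and 6.11 in those without. After thinning, Npy was seen in 48.1% of members with Aldh1a2 and 25% of those without, and Ly6a in 3.77% and 9.72%. Members without a gene could only be chosen through the other 2, so these groups differ in those as well. Their median depths were 12243 and 13301.5 UMIs with and without Aldh1a2.

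Members with more of the 3 genes had more Clu, with means of 9.89, 16.3 and 22.8 in cells with 1, 2 and all 3. Npy had 2.95, 4.15 and 17.7, Lcn2 0.202, 1.36 and 2.31, and Tbx1 0.659, 1.24 and 1.62. Sox9 ran the other way with 1.69, 0.997 and 0.767, and Cd74 stayed between 1.42 and 1.52. Cells with more of the genes were deeper (medians of 10693, 12296 and 16653 UMIs). Thinning gave Npy shares of 26.7%, 33.3% and 65.0% and Clu shares of 82.2%, 92.5% and 90.0%.

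Of 36 developmental regulators measured, 18 were higher in DBZ members and 18 lower, with a median of 0.00, 3 past 2-fold higher and 8 past 2-fold lower. Cdx2, the master factor of intestinal epithelium, had 0.460 against 1.53 per 10000 in the DBZ library (log2 change -1.63), Cdx1 0.0940 against 0.441 (-1.77) and Hnf4a 0.296 against 0.740 (-1.19). Sox9, a factor of crypt base and Paneth cells, had 1.12 against 3.06 (-1.41), and was seen in 52.2% of members and 83.3% of other cells. Msx1 (-3.29) and Msx3 (-2.11), homeobox genes, were low as well. Sox2, a factor of foregut and neural progenitors, had 0.234 against 0.0129 (2.18; 19.1% and 1.13% of cells), Sox21 0.733 against 0.254 (1.37) and Irx5 3.01 against 1.62 (0.87). In DMSO members 13 of 34 were higher, with a median of -0.37. There Cdx1 had -1.88, Sox9 -0.64 and Cdx2 -0.12. Against other DBZ cells without the defensin-high and endocrine-high ones the DBZ changes were -1.54 for Cdx2, -1.38 for Sox9 and -2.72 for Msx1.

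Of 19 Wnt feedback genes, 15 were higher in DBZ members than in all other DBZ cells, with a median of 0.43, where 62.5% of all genes were higher. Against the cells highest in Mt3, Spock2 and Pycr1, described below, 9 were higher and 10 lower, with a median of -0.42. In that comparison 57.7% of all genes at the same filter were higher, with a median of 0.076. The values that follow are against all other DBZ cells again. Wnt10a had 0.530 against 0.111 (log2 change 1.85), Wnt6 5.31 against 1.65 (1.66) and Axin2, a direct target of beta-catenin, 5.99 against 3.50 (0.77). Notum, a secreted Wnt inhibitor, was lower with 10.9 against 15.5 (-0.51). In DMSO members 10 of 19 were higher, with a median of 0.14. The crypt stem cell list had 8 genes higher and 9 lower (median -0.19), with 0 past 2-fold higher and 6 past 2-fold lower. Ascl2, a stem cell factor, had -2.02 and Lgr5, an R-spondin receptor and stem cell marker, 0.19, close to the 0.14 typical of all genes. Lgr5 was seen in 62.9% of members and 54.4% of other DBZ cells. Prox1, a homeobox factor known as a Wnt target in colon tumours, had 11.3 against 9.10 (0.31), and Hes1, the Notch target, 1.04 against 0.819 (0.33). In DMSO members 2 of 17 stem cell genes were higher and 15 lower, where 46.6% of all genes were higher. Their median was -0.76, with 6 past 2-fold lower. Prox1 had -0.58 there, Lgr5 -0.82 and Hes1 0.51.

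Of 20 measured interferon and MHC genes, Cd74 among them, 16 were higher in DBZ members, where 62.5% of all genes were higher. The median was 0.62, and 3 were past 2-fold. Tapbp, which loads peptides on MHC class I, had 1.63 against 0.473 (log2 change 1.68), H2-D1 5.64 against 2.63 (1.09) and B2m, the class I light chain with the most UMIs on the list, 5.76 against 3.53 (0.70). H2-Ab1, an MHC class II chain, had 0.0889 against 0.0543, and the interferon target Isg15 0.0403 against 0.0495. H2-D1 and H2-K1 are close paralogs. Of 8 markers of immune cells, Cd68 was the only one among the genes used here, with 0.235 against 0.0702 and UMIs in 21.9% and 6.87% of cells. In DMSO members Cd68 had 0.765 against 0.117. Of 6 endothelial markers 2 were in the table, Pecam1 with 0.0518 against 0.0256 and Cldn5 with 0.104 against 0.00529 (log2 change 1.48), together 0.156 against 0.0309. Both were seen in few cells, 5.62% and 4.49% of DBZ members, and Cldn5 was listed at 0 in the DMSO library. These markers were higher on average in DBZ members, as were Cd74, Ecscr, Plat and Rgs5. Whether the same cells held them was not tested, nor was their part in those values.

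The BMP list was split, with 7 genes higher and 7 lower and a median of -0.12. Id3 had 2.27 against 7.58 (log2 change -1.72), Id1 0.647 against 1.54 (-1.19) and Smad7 0.223 against 0.614 (-1.28), while Bmp4 had 0.675 against 0.245 (1.30) and Bmp2 0.149 against 0.0352 (1.22). Vim, the only listed fibroblast gene used here, had 2.48 against 6.27 (-1.32). Cholesterol synthesis genes were lower in 18 of 20 (median -0.52, Fdps -0.92), and genes of protein folding and secretion higher in 23 of 26 (median 0.33, Dnajb11 0.81). Mki67 UMIs were in 15.7% of members and 15.1% of other DBZ cells. The mitosis list had a median of 0.12, with 17 of 24 genes higher. DNA replication had 0.22, with 22 of 26 higher. Of all genes at the list filter 62.5% were higher, with a median of 0.10. Both lists had 0 genes past 2-fold.

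The members were set against other sets of cells that also lay mostly in the DBZ library. The 200 cells highest in Mt3, Spock2 and Pycr1 held 170 DBZ cells and shared 33 cells (16.5% of either set) with the members, and the 200 highest in Cyp2c55 and Msx3 held 174 DBZ cells and shared 4 (2% of either set). Shared cells were left out below. Nts, Aldh1a2 and Ly6d were left out of the gene counts, but the genes that chose each comparison set were not. Lower values of those genes in members follow from the choice, and they are not named below for their own set. Against the Mt3 set, 441 of 9283 genes (4.75%) were at least 2-fold higher in members and 179 (1.93%) lower. Ly6g6c (4.32), Cd74 (3.92), Clca3b (3.90) and Sprr1a (3.77) led the higher genes, and the metallothionein Mt4 (-5.42) and Msx3 (-3.54) the lower ones. Clu had 17.6 against 1.64 (3.38). Npy was lower in members than in the Mt3 set (-0.95), and Tmem255a (0.37) and Parm1 (0.20) were near equal, so for these 3 genes the members did not stand above the Mt3 set. Tbx1 (0.76), S100a6 (0.74) and Alb (0.97) were less than 2-fold higher in members, a smaller change than against all other DBZ cells. Prox1 (-0.58) and Lgr5 (-1.11) were lower in members than in the Mt3 set. All 24 mitosis genes were higher in members than in the Mt3 set (median 1.22). Of all 12677 genes at the list filter, 57.7% were higher in that comparison, with a median of 0.076.

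Against the Cyp2c55 set, 647 of 9376 genes (6.9%) were at least 2-fold higher in members and 175 (1.87%) lower. Cd74 (4.48), Lcn2 (4.30), Ly6g6c (4.13), Parm1 (3.94), Clu (3.82) and Tbx1 (3.70) were among the highest. Chga (-4.76), Chgb (-4.58), Mptx2 (-4.08) and Reg4 (-3.69), genes of endocrine and Paneth cells, were the lowest, and Msx1 had -3.26. Mitosis genes were near equal (median -0.04, against 0.14 for all genes at the list filter). Enterocyte genes were lower in 14 of 14 (median -0.71). Clu, Cd74 and Ly6g6c were thus over 4-fold higher in members in both of these comparisons.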

How the data were processed

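Droplet single-cell RNA sequencing with UMIs was planned for 3000 cells in each sample, per the labels' protocols. The submitters' processing notes list Cell Ranger 2.1.1, the build mm10 and Seurat without a version. Both libraries stand in 1 deposited table in natural log (ln) units. Judged by its values, an entry is ln(1 + 10000 x share), with the share being that of the gene among all UMIs of the cell, and 7553435 of 7553435 entries above 0 gave whole UMIs within 0.01. No count model was fitted to these normalized values. Columns starting with CTRL and GSI were read as DMSO and DBZ from the meaning of the names. The sources used here do not name the filters on cells and genes.

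The members, the 35 gene lists (507 of 621 genes in the table), the comparison sets and the alternatives were chosen with earlier results of these data known. Changes are log2 of (mean + 0.05) ratios per 10000 UMIs, and pooled UMI ratios have exact conditional 95% intervals. Named genes are the 15 highest and 10 lowest changes of DBZ members among genes in 10% of cells (without Gm, Rik, mitochondrial and ribosomal genes and Xist), the 5 most correlated, the given markers, Prox1, Lgr5, Hes1, and strong or abundant list genes. A few genes that this rule names are not reported here. Other genes were named after their values were seen, among them Rarb, Dhrs3, Cd59b, Lypd8, Cyr61, Cpe, Sort1, H2-Ab1, Isg15, Mki67, Rxrb, Pecam1, Cldn5 and Irx5. Lists use genes in 1% of either set. The code was tested on simulated data. Thinning to 5000 UMIs removed no cell. No doublet caller and no clustering was run. Python 3.11.15, numpy 2.4.6 and scipy 1.17.1 were used.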

Additional observations from a re-analysis of the deposited data

Results flagged for a closer look

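Prox1 and Lgr5 went in opposite directions in the libraries, with counting intervals of the pooled ratio on opposite sides of 0. The log2 change of members against other cells was 0.31 for Prox1 with DBZ and -0.58 with DMSO, a difference of -0.90, and 0.19 and -0.82 for Lgr5, a difference of -1.01. The DMSO values rest on 104 Prox1 UMIs in 16 cells and 20 Lgr5 UMIs in 10 cells. The DBZ value of Lgr5 is close to the 0.14 typical of all genes, and it was 0.021 against other DBZ cells without the defensin-high and endocrine-high ones. Each library is 1 sample, so the difference was not tested.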

How the results depend on the processing

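No paired analysis was possible because each group has 1 library. Leaving out defensin-high and endocrine-high cells, or members with 1 gene, was chosen after seeing the data. Leaving the former out of the other cells only, the Paneth median became 0.82 and Defa3 0.67, the hormone median -0.021 and the lower genes 77. Leaving them out of both sides gave -0.014, 0.30, -0.099 and 90.0. With 400 members, 185 genes were higher and 74 lower and the hormone median was -0.64. With 100, 95% of members were DBZ cells and the Paneth median was -1.29. The neighbour share with 100 was 39.3%. Fewer cells of the library were then members, so this share cannot be set directly against the 53.1% given above. For pseudocounts of 0.01 and 0.5, higher genes numbered 493 and 35, lower genes 183 and 46, the Ly6 medians were 1.41 and 0.14, the hormone medians -2.45 and -0.35, and the Paneth median at 0.5 was -1.004. With genes in 25% of cells, 197 were higher and 63 lower, with a Ly6 median of 1.94 and a hormone median of -0.32, and with no filter 224 were lower. The third-gene changes were 1.79 for Nts and 2.67 for Ly6d with 100 cells, and 2.49 and 1.96 after thinning. Against the Mt3 set, higher and lower genes numbered 706 and 282 at 0.01, 52 and 32 at 0.5, 224 and 105 in 25% of cells, and 700 and 297 with 100 cells. Against the Cyp2c55 set they numbered 990 and 279, 81 and 34, and 418 and 109 for the first 3 of these. The cause was not tested. Of 1005 values, 811 stayed within their margin, 191 moved and 3 changed sign from a log2 change past 2-fold. Sign changes of smaller values were counted among those that stayed or moved. The goblet median, for example, went from -0.10 to 0.17 with both sides filtered and was counted as staying. The UMIs of a gene in 1 library limit the precision, and no alternative replaces a second library.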
